A study of Mus musculus with 16 samples.

Results

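The genes described here are a set of 10 that mark or build the plasmacytoid and conventional branches of the dendritic cell lineage, chosen by symbol: Siglech, Tcf4, Bcl11a, Spib and Runx2 for the plasmacytoid branch, and Batf3, Itgax, Zbtb46, Clec9a and Irf4 for the conventional branch. Of these 10, 8 were measured by a probe set annotated to that gene alone, 4 in each branch, among 22180 genes in all. Runx2 is not analysed here, and the 1 probe set annotated to Clec9a is also annotated to Clec1b, so it was not read as Clec9a. Their transcripts were followed on 16 arrays of progenitors sorted from the bone marrow of mice aged 8 to 12 weeks, with 4 arrays in each of 4 groups. The cells were MDPs, the shared progenitor of macrophages and dendritic cells, and cMoPs, the common monocyte progenitor downstream of it. Each came from Dnmt1+/+ mice, called control here, and from Dnmt1c/chip mice. All were sorted as Lin-, cKithi, CD115+ and CD11b- cells, and Ly-6C separated cMoPs (Ly-6C+) from MDPs (Ly-6C-). As background, the c/chip genotype pairs a null with a hypomorphic allele of the maintenance DNA methyltransferase gene, in every cell of the animal. The labels do not say how many animals gave an array, so p-values measure the spread between samples only. The 10 genes, and the further lists below, were chosen with earlier results of these data known. Counts set beside the share of all genes are therefore descriptions and not an independent test.

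Dendritic cells arise in bone marrow from progenitors that depend on Flt3 and its ligand. Plasmacytoid dendritic cells, the main producers of type I interferon, are specified by the E protein E2-2, encoded by Tcf4, with the zinc finger factor Bcl11a and the ETS factor Spi-B. Conventional dendritic cells present antigen to T cells and carry CD11c, encoded by Itgax, with the zinc finger factor Zbtb46 as a lineage mark. Batf3 directs the cross-presenting subset and Irf4 the other conventional subset. Siglech encodes a sialic acid-binding receptor used as a surface marker of mouse plasmacytoid dendritic cells.

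The promoters of Siglech, Bcl11a and Itgax are shown because these genes, with Tcf4, were the members that differed between the progenitors. They are RefSeq sequences of assembly GRCm38.p6, from 250 bases before to 50 bases after the listed start, written 5′ to 3′. Capitals mark the E-box CANNTG, the core that E proteins such as E2-2 bind, which reads the same on both strands. The Siglech sequence is chr7:55767934-55768233 (plus strand), that of Bcl11a is chr11:24080445-24080744 (plus strand), and that of Itgax is chr7:128129300-128129599 (plus strand). The annotated Bcl11a gene begins at chr11:24076564, so the start listed for it lies inside the gene.
Siglech: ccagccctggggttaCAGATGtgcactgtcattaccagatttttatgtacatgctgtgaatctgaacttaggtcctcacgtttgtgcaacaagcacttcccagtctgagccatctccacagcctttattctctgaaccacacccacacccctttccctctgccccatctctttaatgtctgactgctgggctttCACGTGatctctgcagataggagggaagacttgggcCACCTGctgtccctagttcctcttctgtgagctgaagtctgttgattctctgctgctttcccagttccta
Bcl11a: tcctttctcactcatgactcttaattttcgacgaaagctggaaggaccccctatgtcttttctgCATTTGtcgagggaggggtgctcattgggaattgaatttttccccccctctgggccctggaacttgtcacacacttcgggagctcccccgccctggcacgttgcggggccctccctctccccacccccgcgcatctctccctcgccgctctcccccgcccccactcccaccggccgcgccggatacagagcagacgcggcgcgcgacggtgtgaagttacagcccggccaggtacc
Itgax: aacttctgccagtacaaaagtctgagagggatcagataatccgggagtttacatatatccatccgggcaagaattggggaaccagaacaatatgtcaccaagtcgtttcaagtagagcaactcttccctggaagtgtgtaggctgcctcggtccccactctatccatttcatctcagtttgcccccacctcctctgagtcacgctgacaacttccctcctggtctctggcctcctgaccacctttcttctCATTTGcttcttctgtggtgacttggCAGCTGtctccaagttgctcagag
The Siglech promoter held 3 E-boxes, that of Itgax 2 and that of Bcl11a 1, and 72.3% of the 32851 promoters in the table held at least 1. The ETS core GGAA, the letters that Spi-B and its relatives bind, was found on either strand 6 times in Siglech, 4 times in Bcl11a and 4 times in Itgax, without overlap with an E-box, and in 96.0% of all promoters. CpG content differed more among the members: 2 CpG dinucleotides in Siglech, 5 in Itgax and 23 in Bcl11a, against a median of 7 over all promoters. Of the other promoters in the table, those of Spib (2), Clec9a (1) and Runx2 (2) held few, that of Irf4 held 11 and that of Batf3 34. The listed start of Zbtb46 lies inside the annotated gene (chr2:181371009-181493262, minus strand). Its window (chr2:181424339-181424638, 1 CpG) is therefore not at the 5′ end of the gene. These are descriptions of sequence, and DNA methylation was not measured on the arrays.

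The sort and the genotype were checked first. Dnmt1 was 1.10 lower on the log2 scale in c/chip MDPs (SE 0.137, adjusted p = 3.48e-04) and 0.91 lower in c/chip cMoPs (SE 0.137, adjusted p = 0.00814), with no overlap between arrays. Group means of Kit lay between 8.78 and 9.26 and those of Csf1r, which encodes CD115, between 8.56 and 9.32. Csf1r was 0.47 lower in c/chip than in control MDPs, which did not pass (SE 0.157, adjusted p = 0.152). Between c/chip cMoPs and c/chip MDPs, Csf1r passed and was higher in cMoPs. Itgam, which encodes the CD11b that the cells were sorted to lack at the surface, was at 5.45 to 6.95 over the 16 arrays, above the array medians on all of them, and did not pass between any groups. Ly6c2, a gene of the Ly-6C antigen, averaged 10.20 ± 0.26 (SD, n = 4) in MDPs and 12.04 ± 0.05 in cMoPs of control mice, and 11.27 ± 0.17 in MDPs of c/chip mice. MDP replicates 1, 3 and 4 of c/chip mice carried Xist (9.51 to 10.65) together with Y-linked transcripts (mean of 3 genes 5.27 to 6.42). Control arrays carried 1 or the other. In both control cell types, replicates 1 and 2 carried Xist (10.79 to 11.36) and replicates 3 and 4 the Y-linked transcripts (6.97 to 7.14). The mean of 14 immediate early genes ranged from 5.10 to 8.00 over the 16 arrays. All values are log2 RMA levels, and the median over all genes on an array was 3.64 to 3.76. No background level is given for these arrays.

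Siglech showed the widest variation of the 8 genes. In control MDPs its levels were 6.28, 7.62, 5.83 and 4.74 in replicates 1 to 4. In c/chip MDPs they were 3.79, 3.31, 3.19 and 3.16. Every control array lay above every c/chip array, and replicates 2 to 4 of the c/chip MDPs lay below their array's median. In control cMoPs Siglech was at 3.53, 4.13, 3.62 and 3.77, and in c/chip cMoPs at 3.56, 3.33, 3.41 and 3.09. Control MDPs thus stood alone at the top of the order, and the 3 other groups overlapped with their neighbours.

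Tcf4 was well above the array medians on all 16 arrays. In MDPs its levels were 8.51, 8.34, 8.34 and 8.45 (control, replicates 1 to 4) and 7.96, 7.76, 8.17 and 8.09 (c/chip). They were 7.31, 6.76, 7.50 and 7.36 in control cMoPs and 7.60, 7.20, 7.66 and 7.10 in c/chip cMoPs. The order was control MDPs, c/chip MDPs and then cMoPs, with no overlap at either of these steps, while the cMoP groups overlapped with each other. Bcl11a followed a like order, in MDPs at 8.57, 8.88, 8.58 and 8.22 (control) and at 8.64, 7.89, 7.96 and 8.10 (c/chip). In cMoPs it was narrow, 7.32 to 7.45 in control and 7.23 to 7.42 in c/chip cells. The MDP groups of Bcl11a overlapped through c/chip replicate 1, and all MDP arrays lay above all cMoP arrays. A second Bcl11a probe set, dimmer at a mean of 5.77 over all arrays, averaged 6.43 in control and 5.84 in c/chip MDPs, and 5.41 in control and 5.42 in c/chip cMoPs. Spib lay below the array median on all 16 arrays, with group means from 2.36 to 2.80.

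Itgax was the only conventional gene clearly above the medians, and that in MDPs. In MDPs its levels were 5.30, 5.80, 6.18 and 5.71 (control) and 5.62, 4.76, 4.91 and 4.62 (c/chip). In cMoPs it was at 3.30, 3.57, 3.90 and 3.99 in control and at 3.23, 3.95, 2.999 and 3.06 in c/chip cells. MDPs and cMoPs did not overlap, and the genotypes overlapped within each cell type. Batf3 exceeded its array's median in 2 of 16 arrays, control MDP replicates 1 and 2 (3.98 and 4.37), against 2.76 and 3.57 in control MDP replicates 3 and 4. Its c/chip MDP levels were 2.68 to 3.39. Zbtb46 (group means 2.97 to 3.10) and Irf4 (2.65 to 2.94) lay below the array medians throughout, with overlap between all neighbouring groups.

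**Figure D1:**
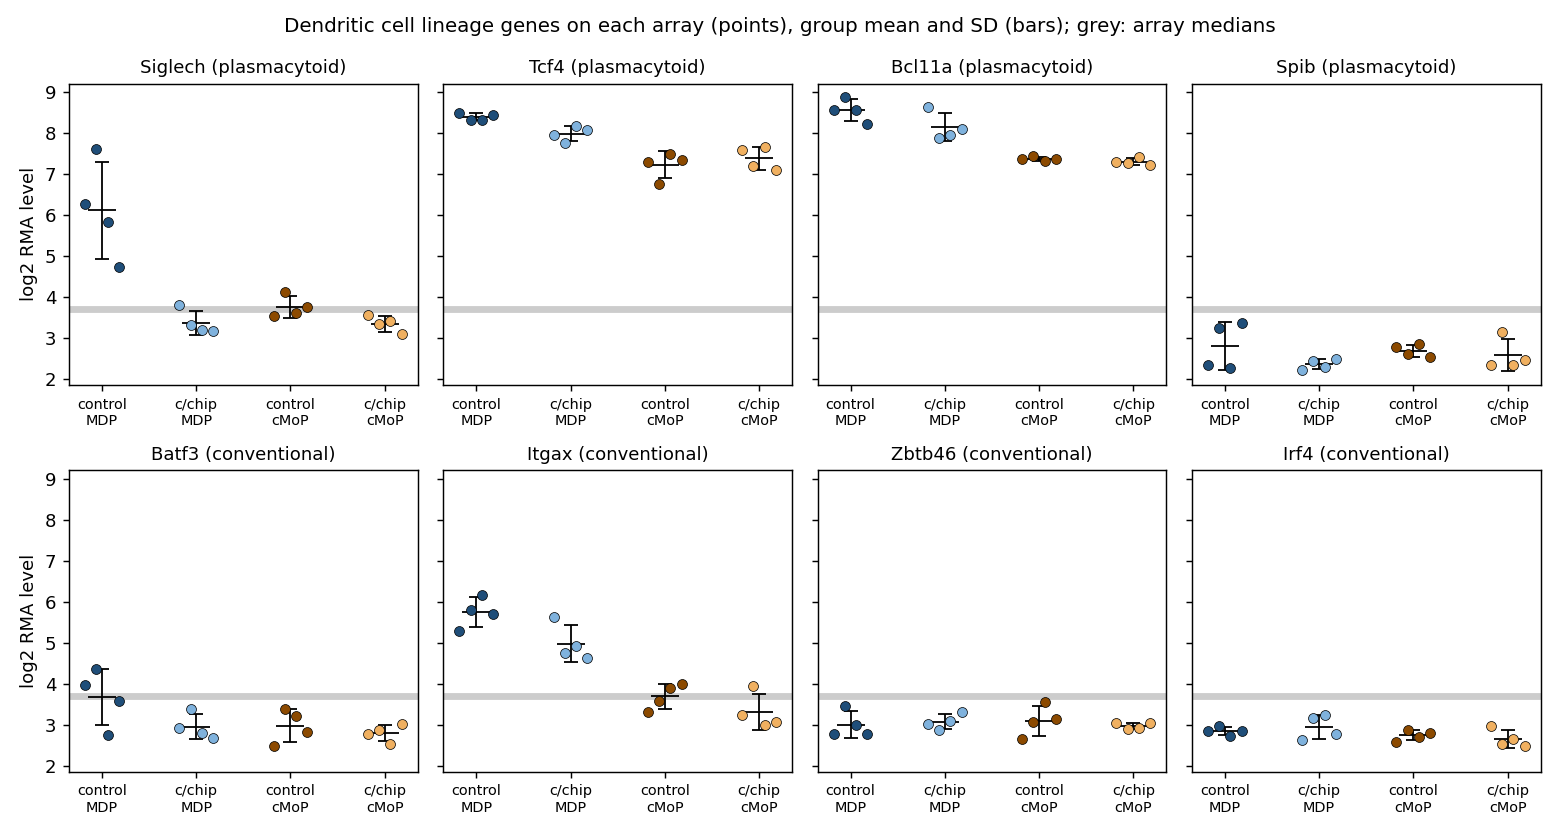
Log2 RMA level (vertical axis) of the 8 measured genes on each array, by group (horizontal axis), with points from left to right as replicates 1 to 4, the group mean and its SD as bars, and the range of array medians in grey. Siglech lies at 4.74 to 7.62 in control MDPs and at or below 4.13 in the other groups, while Tcf4, Bcl11a and Itgax step down from MDPs to cMoPs.

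The first comparison asks how reduced Dnmt1 changes these genes in the progenitor that still has dendritic cell potential. In c/chip MDPs, Siglech fell and the other 7 genes did not pass the test. Siglech was lower by a log2 difference of −2.75 (SE 0.394, 6.74-fold, adjusted p = 0.00136). In all, 1 of 8 genes was called lower, against 0.685% of all genes, and 2 of 8 had no overlap in that direction, against 2.82%. The second was Tcf4, 0.41 lower (SE 0.171, adjusted p = 0.269). Bcl11a was 0.41 lower (SE 0.164, adjusted p = 0.241), Itgax 0.77 lower (SE 0.254, adjusted p = 0.144) and Batf3 0.72 lower (SE 0.280, adjusted p = 0.228), and Spib was 0.44 lower (SE 0.238, adjusted p = 0.436). Siglech and 4 further genes, 5 of 8, had an unadjusted p under 0.05, against 14.3% of all genes. The intervals of Tcf4 (95%, −0.77 to −0.05), Bcl11a (−0.76 to −0.07), Itgax (−1.31 to −0.23) and Batf3 (−1.31 to −0.13) excluded 0 before adjustment over all genes. Zbtb46 and Irf4 differed by 0.07 (SE 0.187) and 0.10 (SE 0.155). The median difference of the 8 genes was −0.43, beside 0.03 over all genes.

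The Siglech call was made with the spread shared by the 4 groups. The SD of Siglech was 1.19 among control and 0.29 among c/chip MDP arrays. When the 8 MDP arrays were fitted on their own by limma, the same Siglech difference gave adjusted p = 0.0639. That fit held fewer arrays and called 64 of all genes, against 432 in the fit of all arrays. With only replicate 2 of the c/chip MDPs kept, the array without Xist, the difference was −2.81. This value rests on a lone array, and the part of the Xist and Y-linked transcripts in the difference was not tested. In bulk samples, fewer Siglech-expressing cells and less Siglech RNA per cell cannot be told apart. Ly6c2, a gene of the Ly-6C antigen used in the gate, was 1.06 higher in the same c/chip MDPs (SE 0.136, adjusted p = 4.72e-04). Ly6c1, another Ly-6C gene, was 0.61 higher and did not pass (SE 0.280, adjusted p = 0.329). The part of either gene in the fall of Siglech was not tested.

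In cMoPs, none of the 8 genes passed between genotypes by limma, and 0 had an unadjusted p under 0.05. Of all genes, 0.113% were called and 4.74% had an unadjusted p under 0.05. Siglech was 0.42 lower in c/chip cMoPs (SE 0.394, interval −1.25 to 0.42). This interval uses the spread shared by the 4 groups, while the SD of Siglech was 0.27 in control and 0.20 in c/chip cMoPs. Itgax was 0.38 lower (SE 0.254, −0.92 to 0.16), and Tcf4 0.16 higher (SE 0.171, −0.20 to 0.52). Bcl11a differed by −0.07 (SE 0.164, −0.42 to 0.27). The genotype difference of Siglech was 2.34 more positive in cMoPs than in MDPs (SE 0.557). This missed the threshold (unadjusted p = 6.20e-04, adjusted p = 0.177), which 0.0586% of all genes passed. Without control MDP replicate 4, whose Siglech level was the lowest of its group, it was 2.80 (adjusted p = 0.0221). For Tcf4 the difference of the genotype effects was 0.57 (SE 0.242, adjusted p = 0.529).

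The second question is how these genes differ between MDPs and the monocyte-committed cMoPs. In control mice 4 of the 8 genes were lower in cMoPs, against 1.71% of all genes, and these 4 had no overlap between arrays, against 4.76%. Itgax was 2.06 lower (SE 0.254, 4.17-fold, adjusted p = 7.81e-05) and Siglech 2.36 lower (SE 0.394, 5.12-fold, adjusted p = 0.00142), both to levels near the array medians. Bcl11a was 1.18 lower (SE 0.164, 2.27-fold, adjusted p = 2.53e-04) and Tcf4 1.17 lower (SE 0.171, 2.26-fold, adjusted p = 3.90e-04), and these 2 remained well above the medians in cMoPs. Batf3 was 0.70 lower (SE 0.280, adjusted p = 0.210), and 1.00 lower without control MDP replicate 3 (adjusted p = 0.0243). Spib, Zbtb46 and Irf4 differed by −0.11 (SE 0.238), 0.10 (SE 0.187) and −0.11 (SE 0.155). The median of the 8 was −0.94, beside −0.003 over all genes.

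In c/chip mice, 2 of the 8 were lower in cMoPs, against 1.49% of all genes, 0 were higher, against 1.8%, and 3 had no overlap in that direction, against 5.1%. An unadjusted p under 0.05 was found for 3 of the 8, against 15.9% of all genes. Itgax was 1.67 lower (SE 0.254, adjusted p = 0.00114) and Bcl11a 0.84 lower (SE 0.164, adjusted p = 0.00732). Tcf4 was 0.60 lower without overlap (SE 0.171, adjusted p = 0.0671). Siglech, at low levels in both cell types of c/chip mice, differed by −0.02 (SE 0.394, interval −0.85 to 0.81). That interval also uses the shared spread, beside SDs of 0.29 in c/chip MDPs and 0.20 in c/chip cMoPs. The Bcl11a call was lost with the mean of its 2 probe sets (−0.63, adjusted p = 0.0986). With only c/chip MDP replicate 2 kept, Bcl11a was 0.58 lower (adjusted p = 0.262) and Itgax 1.45 lower (adjusted p = 0.0779), where the spread of the lone array is again taken from the other groups. The cell type comparisons use the same MDP arrays as the genotype comparison in MDPs, so the values stand side by side and are not separate evidence.

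**Figure D2:**
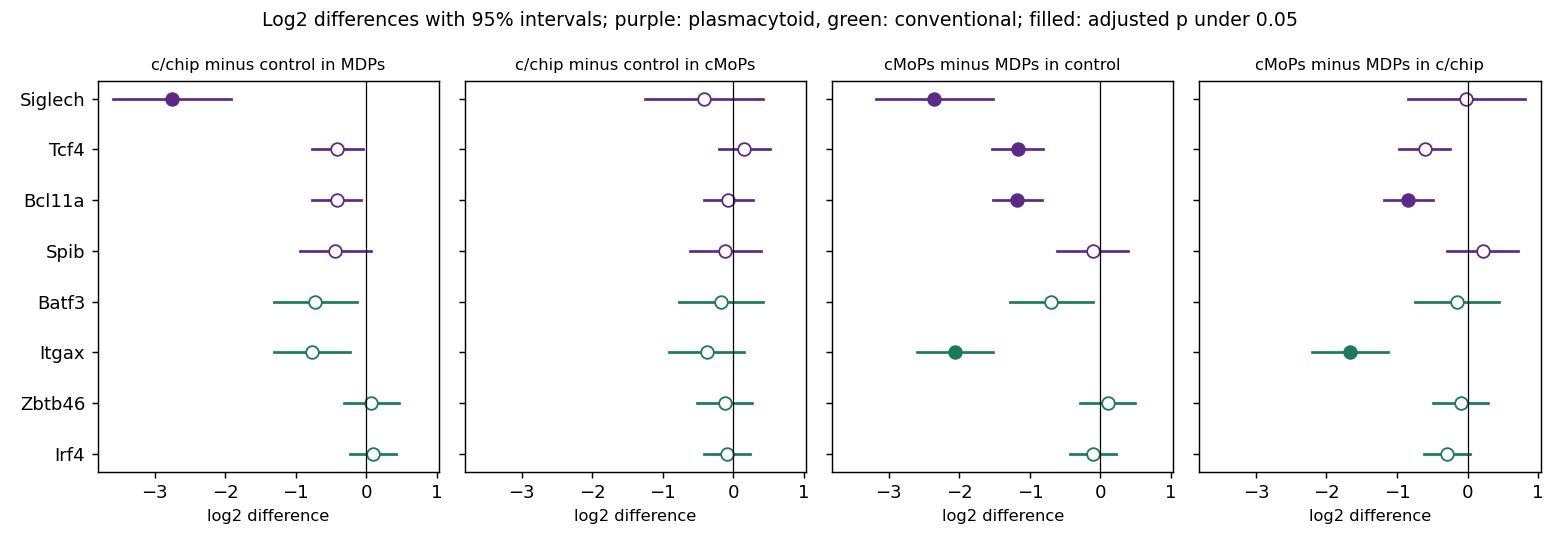
Log2 difference (horizontal axis) of the 8 genes with 95% intervals in the 4 pairwise comparisons, purple for plasmacytoid and green for conventional genes, filled where the adjusted p was under 0.05. Siglech alone is filled for the genotype comparison in MDPs (−2.75), and 4 genes are filled for control cMoPs against control MDPs.

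Set side by side, the plasmacytoid branch had 1 of 4 genes lower in c/chip MDPs (median −0.43) and the conventional branch 0 of 4 (median −0.32). Of all genes, 0.685% were called lower in this comparison. At an unadjusted p under 0.05 there were 3 of 4 plasmacytoid and 2 of 4 conventional genes, against 14.3% of all genes. Between control cMoPs and MDPs, 3 of 4 plasmacytoid genes (median −1.18) and 1 of 4 conventional genes (median −0.40) were lower. The share of all genes called lower there was 1.71%. Between c/chip cMoPs and MDPs it was 1 of 4 in each branch (medians −0.31 and −0.22), against 1.49% of all genes. Between genotypes in cMoPs, 0 of 4 were called in each branch (−0.09 and −0.15), against 0.113% of all genes in either direction. No test was made of the difference between branches. Spib in one branch, and Zbtb46 and Irf4 in the other, lay below the array medians on all arrays. Batf3, also of the conventional branch, lay below them on 14 of 16 arrays.

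Of 28 other plasmacytoid dendritic cell genes, 3 were lower and 1 higher in c/chip MDPs, against 0.685% and 1.26% of all genes (list median −0.07). Cox6a2, a muscle-type cytochrome oxidase subunit that marks mouse plasmacytoid dendritic cells, averaged 8.26 ± 0.27 in control and 6.58 ± 0.49 in c/chip MDPs, a difference of −1.68 (SE 0.299, adjusted p = 0.00846). Cd300c, a CD300 family receptor gene, was 2.09 lower (SE 0.200, adjusted p = 3.12e-05). Dntt, the terminal transferase gene that is also on the lymphoid progenitor list, was 4.68 lower (SE 0.409, adjusted p = 1.81e-05). The gene that was higher was Ly6c2, a gene of the Ly-6C antigen that separated MDPs from cMoPs. In c/chip mice, cMoPs differed from MDPs by −0.25 for Cox6a2 (SE 0.299, interval −0.89 to 0.38) and by 0.18 for Cd300c (SE 0.200, interval −0.24 to 0.61). The genotype effects in cMoPs and MDPs differed for 2 of the 28, Dntt (4.61, SE 0.578, adjusted p = 0.00416) and Cd300c (1.82, SE 0.283, adjusted p = 0.0188). Of all genes, 0.0586% passed in that comparison. In control cMoPs against control MDPs, 4 of the 28 were lower and 2 higher, against 1.71% and 2.84% of all genes. The lower ones were Dntt (−6.03), Cox6a2 (−1.94), Cd300c (−1.64) and the LIF receptor gene Lifr (−1.27), and the higher ones were Ly6c2 (1.84) and the endolysosomal nuclease gene Pld4 (1.44).

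Of 30 other conventional dendritic cell genes, 0 were called in c/chip MDPs, and 5 had an unadjusted limma p under 0.05, a share near the 14.3% of all genes (median −0.08). In control cMoPs, 3 were higher than in MDPs and 0 lower (median 0.03), against 2.84% and 1.71% of all genes. They were the C-type lectin genes Clec4a2 (3.24, SE 0.460, adjusted p = 3.06e-04) and Mgl2 (2.66, SE 0.337, adjusted p = 1.02e-04), and Naaa, an acid amidase gene (1.42, SE 0.261, adjusted p = 0.00304). Itgax thus fell between control MDPs and cMoPs where these 3 rose.

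Among 29 regulators of dendritic cell development, 2 were lower and 2 higher in c/chip MDPs (median 0.15), against 0.685% and 1.26% of all genes. Flt3, the receptor that sustains dendritic cell progenitors, was at 9.43 ± 0.19 in control and 7.47 ± 0.46 in c/chip MDPs (−1.96, SE 0.236, adjusted p = 2.71e-04), and Irf8, a factor needed for plasmacytoid and cross-presenting dendritic cells, was 0.58 lower (SE 0.128, adjusted p = 0.0278). Csf2ra, the GM-CSF receptor alpha chain gene, was 1.02 higher (SE 0.183, adjusted p = 0.0088), and the granulocyte repressor gene Gfi1 was 1.06 higher (SE 0.224, adjusted p = 0.0235). Id2, whose product binds and blocks E proteins such as that of Tcf4, was 0.97 higher (SE 0.485), which did not pass (adjusted p = 0.382). In control cMoPs, 3 of the 29 were lower than in MDPs and 4 higher, against 1.71% and 2.84% of all genes. The lower ones were Flt3 (−3.15), the zinc finger factor gene Zeb1 (−1.33) and the E protein inhibitor Id3 (−0.98). The higher ones included the monocyte factor Klf4 (2.68), Csf2ra (1.30) and another E protein inhibitor, Id1 (1.05), beside Cebpb (0.82), with adjusted p from 3.98e-07 to 0.0477 over the 7 genes.

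**Figure D3:**
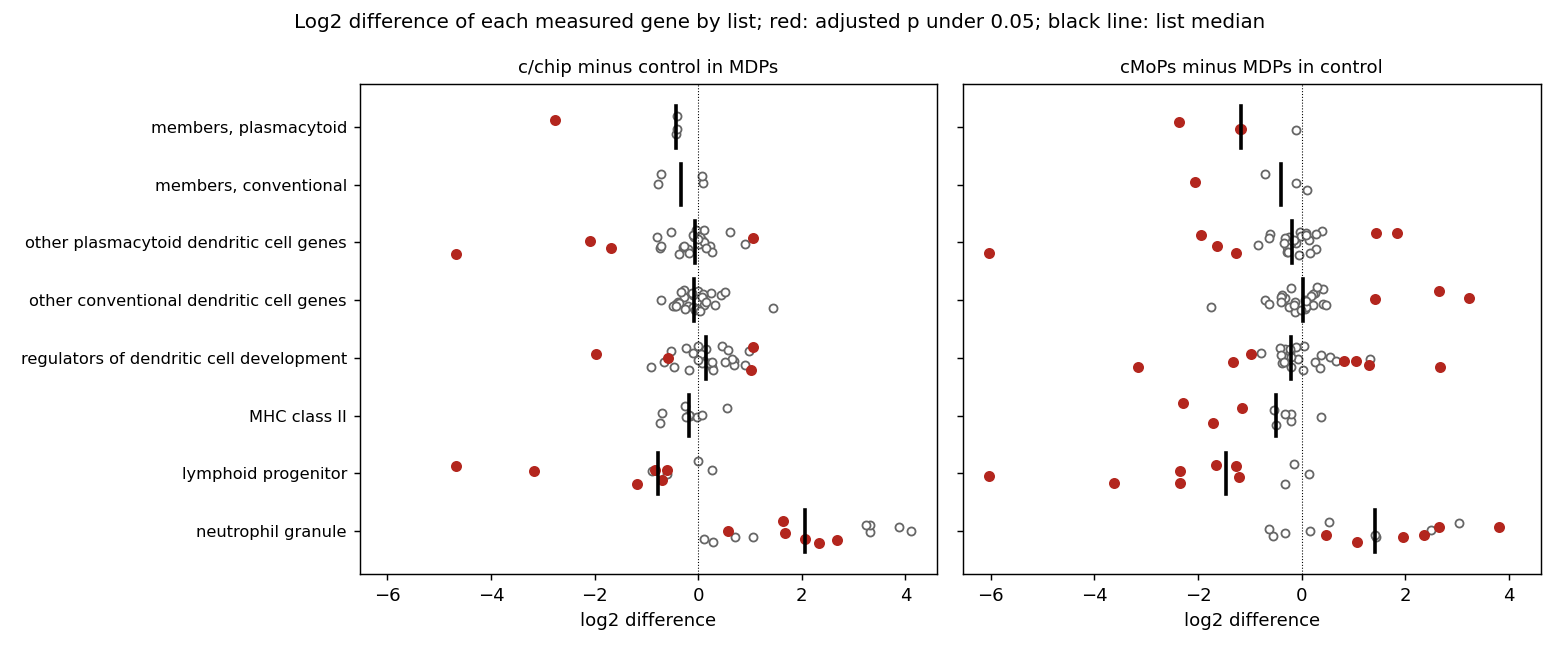
Log2 difference (horizontal axis) of each measured gene by list (vertical axis) for c/chip against control MDPs and for control cMoPs against control MDPs, with genes at an adjusted p under 0.05 in red and list medians as black lines. The other conventional genes hold no red point on the left and 3 on the right, all above 0, and the neutrophil granule list lies to the right of 0 in both panels by its median.

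Of the lists for other cells, the lymphoid progenitor, neutrophil granule, megakaryocyte and erythroid, and mast cell and basophil lists held most of the calls in c/chip MDPs, where Siglech fell. The stated gate was Lin-, cKithi, CD115+ and CD11b-, and whether cells outside it were among those sorted was not tested. Of all genes, 0.685% were called lower, 1.26% higher, and 14.3% had an unadjusted p under 0.05. Of 10 lymphoid progenitor genes, 6 were lower and 0 higher (median −0.77), led by Dntt and Il7r (−3.17, SE 0.472), and the mean level of the list was 6.84 to 7.67 on control and 5.72 to 6.22 on c/chip MDP arrays. Of 15 neutrophil granule genes, 6 were higher and 0 lower (median 2.06, list mean 5.92 to 8.01 on control and 8.04 to 9.97 on c/chip arrays). Of 10 megakaryocyte and erythroid genes, 7 were higher (median 1.37, list mean 4.12 to 4.99 and 5.80 to 6.92), and of 11 mast cell and basophil genes, 5 (median 0.68, list mean 3.99 to 4.53 and 4.80 to 5.81). One of 13 monocyte genes was higher, Ly6c2 (median 0.04, list mean 6.50 to 6.81 and 6.72 to 7.04), and 2 of 12 T and NK cell genes (median 0.06, list mean 3.53 to 3.77 and 3.98 to 4.14). Of 11 B cell genes 0 were called and 0 had an unadjusted limma p under 0.05 (median 0.06), and 8 of them in control and 7 in c/chip MDPs lay below the array medians by their group mean. Of 14 immediate early genes, 0 were called and 4 had an unadjusted limma p under 0.05 (median −1.14). The part of these lists in the values of the dendritic cell genes was not tested.

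The genes whose levels followed the called members most closely over the 16 arrays, by Pearson's r, were Mctp2 (0.944), Dock11 (0.940) and Adam2 (0.938) for Siglech. For Tcf4 they were Macroh2a1 (0.933), Repin1 (0.924) and Egfl7 (0.921), for Bcl11a Marcks (0.943), Egfl7 (0.938) and Fyn (0.937), and for Itgax Egfl7 (0.929), Sox4 (0.928) and Peg13 (0.928). The arrays fall into 4 groups, so these values include a shared order of the groups, and the genes were picked by r on these same arrays. Taken as deviations from the group means, r with Siglech was 0.628 (Adam2) to 0.839 (Mctp2), and r with Tcf4 was 0.577 to 0.665. For Bcl11a it was 0.253 to 0.580, and for Itgax 0.0416 (Egfl7) to 0.385. The SD of Siglech was 1.19 in control MDPs and 0.20 to 0.29 in the other groups, so its r leans on the control MDP arrays. Mctp2 was at 4.19 to 6.29 in control MDPs and at 2.97 to 3.93 in the other groups.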

How the data were processed

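Biotin-labelled RNA of sorted progenitors was hybridised to Affymetrix mouse arrays. The log2 values used are those the authors deposited, 1 per probe set and array, 41345 probe sets in all. The submitters' processing notes name affy, RMA and limma, without versions or settings. Background correction, quantile normalization and probe summary are the steps of RMA. A second deposited table was left out, since none of its 16 value columns matches a label. Groups came from the source names and replicate numbers from the titles. For control cMoPs, the title names both genotypes, while source name and genotype label give Dnmt1+/+.

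Symbols came from the platform annotation (23521 probe sets with 1 symbol, 1820 with several, 16004 with none), and 23328 of the first were matched by Entrez identifier to RefSeq (GRCm38.p6). Of several probe sets for a gene, the one with the highest mean was used. All 16 arrays and 22180 genes entered 1 limma 3.58.1 model (R 4.3.3) of 4 group means, with no filter on low values, and p-values were adjusted by Benjamini-Hochberg over all genes at a threshold of 0.05. Standard errors are those of the moderated fit, and differences are on the log2 scale. The fit was tested on simulated data. The number of arrays limits the precision.

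Lists of other dendritic cell genes, regulators, MHC class II genes and other cell types held 196 measured genes of 209, the members included. The members and lists were chosen with earlier results of these data known. The text names the members, Dnmt1, the sort markers, Xist, up to 6 called genes of each dendritic cell and regulator list in the comparison described, the leading called genes of the other lists, and the 3 genes nearest to each called member. Predicted transcripts were passed over. Id2 was named after its values were seen. Alternatives were the probe set mean, removal of the genes of lowest mean level, quantile normalization, median centring, a trended robust fit, array weights, only the groups compared, a replicate block and leaving out each array. Added after the data were seen were a term for replicates 1 and 2 against 3 and 4, a Y-linked covariate (Eif2s3y, Kdm5d, Uty), and leaving out c/chip MDP arrays 1, 3 and 4.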

Additional observations from a re-analysis of the deposited data

Results flagged for a closer look

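Of 32 combinations of a gene and a group, 1 held an array set apart from the other 3 by Dixon's test. Spib was at 3.15 in c/chip cMoP replicate 2, against 2.34 to 2.45 in the other c/chip cMoPs. Chance flags about 1 in 20 such groups, and Spib lay below the array medians on all arrays.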

How the results depend on the processing

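The calls of Siglech, Tcf4, Bcl11a and Itgax between control cMoPs and MDPs were made under every alternative run, with adjusted p up to 0.0229. The Siglech call in c/chip MDPs was made in all 16 fits without 1 array (−3.21 to −2.25, adjusted p up to 0.0059). The count called in c/chip MDPs was 0 in the fit of the MDP arrays alone (64 of all genes called, against 432) and 0 with c/chip MDP arrays 1, 3 and 4 left out (the lone array then assumed to vary like the other groups), where the plasmacytoid median was −0.66. Fewer arrays entered both fits. Between c/chip cMoPs and MDPs the count was 1 with the mean of probe sets and 0 without those 3 arrays. For the difference of the genotype effects it was 0 to 1 without 1 array.

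Signs changed for 4 genes, each at a value near 0. Siglech between c/chip cMoPs and MDPs was 0.083 with quantile normalization, 0.045 with median centring, 0.040 without the 3 arrays, and −0.088 to 0.13 without 1 array. Without the 3 arrays Zbtb46 was −0.12 in c/chip MDPs and 0.094 between c/chip cMoPs and MDPs. Without 1 array, Zbtb46 ranged from −0.0081 to 0.23 in c/chip MDPs, from −0.28 to 0.024 in c/chip cMoPs and from −0.048 to 0.26 between control cMoPs and MDPs, Spib from −0.29 to 0.077 in the last, and Tcf4 from −0.00051 to 0.25 in c/chip cMoPs. The causes were not tested. Spib was not among the genes kept by the filter on low mean level.

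Deviations of same-numbered arrays correlated at 0.032 to 0.186 between the genotypes in cMoPs, with 3 of 4 pairs above 0.1. In the other comparisons they correlated at −0.039 to 0.093, with 0 above 0.1, so the numbers were not taken as pairs. Same-numbered control MDPs and cMoPs did match in carrying Xist or Y-linked transcripts. With the replicate block, Tcf4 between c/chip cMoPs and MDPs passed (−0.60, adjusted p = 0.0429), as it did with quantile normalization (−0.64, adjusted p = 0.0281) and without control cMoP replicate 2 (adjusted p = 0.0299). The block changed no other call among the 8 genes. Spib, Zbtb46 and Irf4 lay below the array medians on all arrays, and no background level is given.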

Other observations

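MHC class II genes encode the molecules by which dendritic cells present antigen. Of 9 measured, 0 were called in c/chip MDPs (1 at an unadjusted limma p under 0.05, against 14.3% of all genes, median −0.17). H2-Aa averaged 5.57 ± 1.78 (SD, n = 4) in control and 5.55 ± 0.74 in c/chip MDPs, with single control arrays between 3.73 and 7.42. In control cMoPs, 3 of the 9 were lower than in MDPs, against 1.71% of all genes: H2-Aa (−2.29, SE 0.607, adjusted p = 0.039), H2-Ab1 (−1.71, SE 0.395, adjusted p = 0.0167) and H2-Ob (−1.15, SE 0.259, adjusted p = 0.0137). Between c/chip cMoPs and MDPs 0 were called and 2 had an unadjusted limma p under 0.05, against 15.9% of all genes.

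Between the progenitors of c/chip mice, 3 of the 28 other plasmacytoid genes were higher in cMoPs and 0 lower: Ly6c2 (1.80-fold), Pld4 (2.82-fold) and Unc93b1 (1.53-fold), the chaperone gene of nucleic acid-sensing Toll-like receptors. Of the 30 other conventional genes, 3 were higher and 0 lower: Mgl2 (6.87-fold), Rab7b (2.07-fold) and Clec4a2 (3.46-fold), with adjusted p from 1.19e-04 to 0.0479 over the 6 genes, while 1.8% of all genes were called higher. Of the 29 regulators, Flt3 was lower (5.22-fold) and Klf4 higher (7.90-fold).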
